A study of Mus musculus with 6 samples.

Results

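The acute-phase and antimicrobial proteins described here are the products of 8 genes, Lcn2, S100a8, S100a9, Camp, Saa3, Hp, Cp and Marco, chosen by gene symbol from those the array names. They were read by 13 of its 45281 probes and make up 8 of its 19057 named genes. Their transcripts were followed in microglia, the macrophages that live in the brain, taken from LRRK2KO and Ntg mice at postnatal day 3 and treated in vitro. The LRRK2KO strain was B6.129X1(FVB)-Lrrk2tm1.1Cai/J, which carries a disrupted gene for leucine-rich repeat kinase 2, and Ntg mice were C57BL/6. The 6 groups were LRRK2KO and Ntg cells after 24 h of lipopolysaccharide (LPS, a component of the outer membrane of bacteria), LRRK2KO and Ntg cells after 6 h of LPS, and LRRK2KO and Ntg cells after 24 h of phosphate-buffered saline (PBS). Each group was measured on 1 Illumina beadchip.

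Acute-phase proteins are secreted in quantity during infection and injury, above all by the liver, in answer to interleukin-1, interleukin-6 and tumour necrosis factor. Many of them, and the antimicrobial proteins of granulocytes, deny bacteria a nutrient metal, damage their membranes or mark them for uptake. In the brain, Lcn2 is a known marker of inflamed astrocytes and microglia, and S100a8 with S100a9 is better known from infiltrating neutrophils and monocytes.

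A probe counted as detected on an array when its detection p, which compares it with the negative control beads of that array, was under 0.01. Between 29 and 33.2% of probes were detected per array, and the median intensity lay between 94.9 and 111.1 units. Of the 13 member probes, 11 were detected on at least 2 arrays and 2 on none, and 7 of the 8 genes entered the tests. Lrrk2 had 1 detected value among 36 (6 probes on 6 arrays), on the Ntg PBS array, so its level does not check the genotype labels. Of 12 microglia and macrophage markers, 10 to 11 were detected per array, with Csf1r, Aif1, Fcrls and Tyrobp on every array and P2ry12 on none. Whether the arrays stand for separate cultures is not given in the labels. The p-values here reflect no more than array-to-array spread, part or all of it possibly technical. With 1 array per group, that spread also takes in any difference between the genotypes in their response to LPS. In RNA from a whole culture, fewer cells of a type and less RNA per cell cannot be told apart.

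Levels below are deposited intensities in linear units. Differences are on the log2 scale after background correction and quantile normalization, with the standard error (SE) of a limma model fitted to the 6 arrays, in which a genotype term and an arm term add up. A difference between arms thus rests on 2 arrays per arm, 1 of each genotype, and a gene was called at a Benjamini-Hochberg adjusted p under 0.05. The PBS arm lasted 24 h, so the 6 h LPS arm has no vehicle of its own duration.

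After 24 h of LPS, against PBS, 4 of the 7 tested genes rose: the siderophore-binding protein gene Lcn2, the calprotectin subunit gene S100a8, the copper ferroxidase gene Cp and the cathelicidin gene Camp. No member fell. The share of all 8598 genes that was called in this comparison was 15.5%, with 6.54% called higher and 8.99% lower. The median difference of the 7 members was 1.34, against -0.01 over all genes. The serum amyloid gene Saa3, the haptoglobin gene Hp and the scavenger receptor gene Marco did not pass the test, and S100a9 was not detected on any array.

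**Figure D1:**
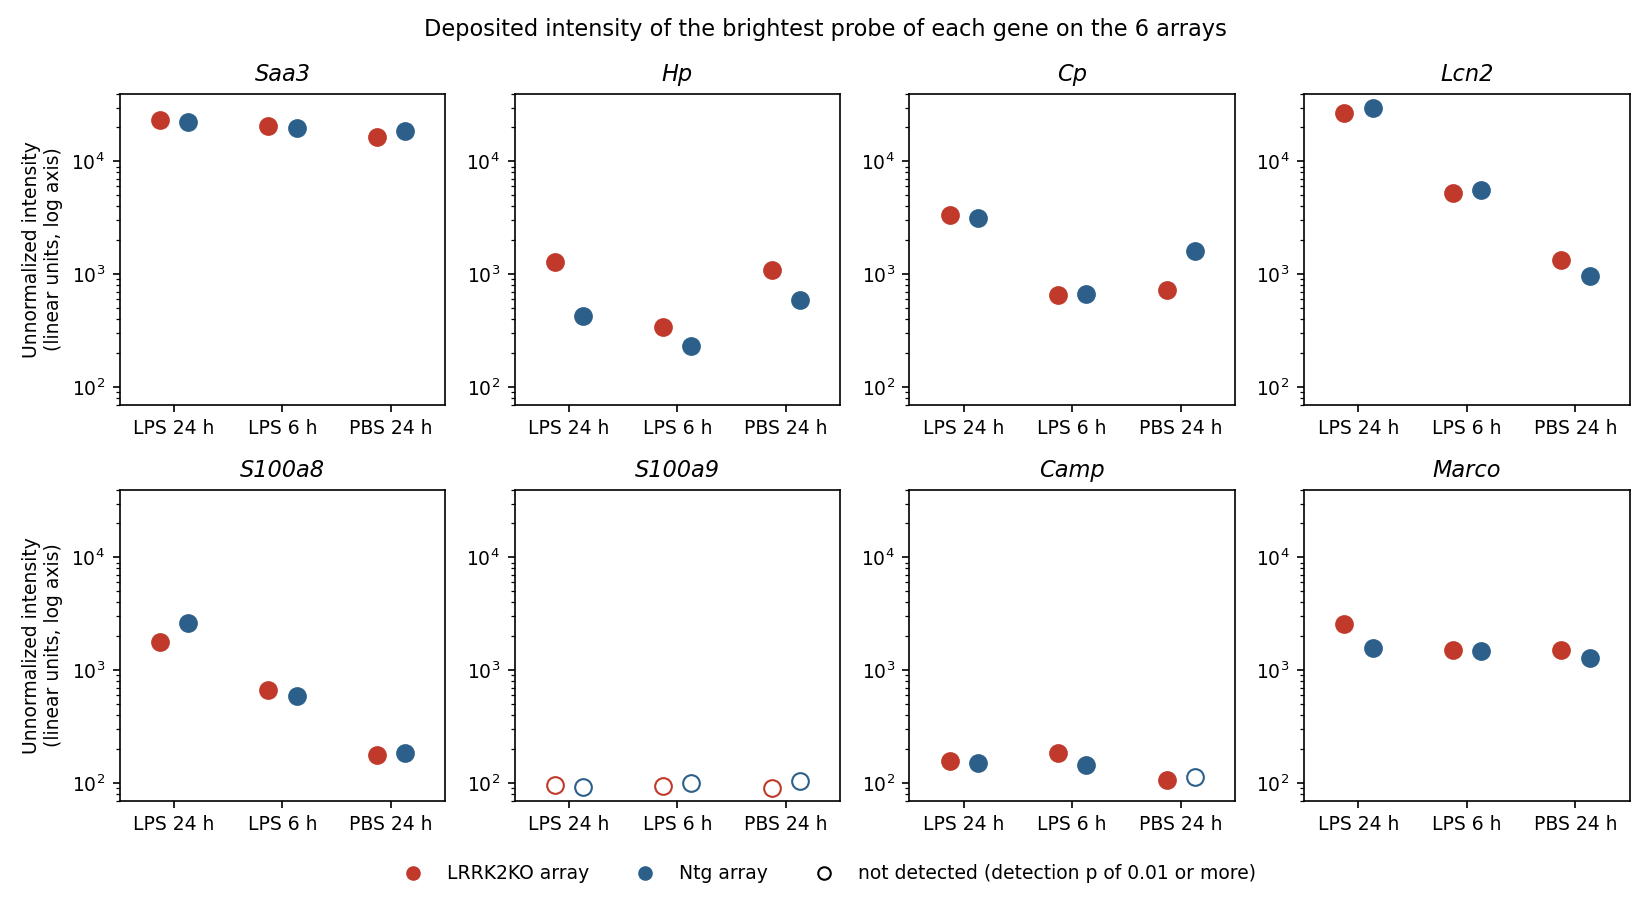
Deposited unnormalized intensity (linear units on a log axis) of the brightest probe of each of the 8 genes on the 6 arrays, with LRRK2KO in red, Ntg in blue and undetected values as open circles. Lcn2 spans 967.7 to 30020 and S100a8 176.7 to 2620.7, Saa3 spans 16325.7 to 23422.9, and the S100a9 values are all open.

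Lcn2 encodes lipocalin 2, which binds the siderophores that bacteria use to take up iron. Its 1 probe read 26959.7 in LRRK2KO and 30020 in Ntg cells after 24 h of LPS, 5277.4 in LRRK2KO and 5640.5 in Ntg cells after 6 h of LPS, and 1341.7 in LRRK2KO and 967.7 in Ntg cells after PBS. The 3 arms did not overlap, and the levels ran from the 24 h arrays down through the 6 h arrays to the PBS arrays. Lcn2 rose by 4.78 ± 0.31 after 24 h of LPS, a 27.4-fold difference (adjusted p = 0.00112), and ranked 11 of 8598 genes by size of rise. Both 24 h readings lie just under the brightest probe of their arrays (27450.5 in LRRK2KO and 30413.9 in Ntg cells), and how far compression there limits the fold was not tested. After 6 h it was higher than in PBS by 2.42 ± 0.31 (adjusted p = 0.00294). Between the LPS arms it was higher at 24 h by 2.36 ± 0.31 (adjusted p = 0.00802), and without the Ntg LPS 24 h array by 2.05 (adjusted p = 0.0719). On both 24 h LPS arrays the Lcn2 probe ranked 2 of all probes by brightness, so that quantile normalization gave it the same value on both, and a genotype difference at the top of the scale cannot be read there.

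S100a8 encodes one subunit of calprotectin, which binds zinc and manganese and also acts as a danger signal outside the cell. Its probe read 1784.5 in LRRK2KO and 2620.7 in Ntg cells after 24 h of LPS, 671.3 in LRRK2KO and 587.3 in Ntg cells after 6 h of LPS, and 176.7 in LRRK2KO and 183.7 in Ntg cells after PBS. As for Lcn2, the arms did not overlap. S100a8 rose by 4.57 ± 0.29 at 24 h (23.8-fold, adjusted p = 0.00109) and by 2.85 ± 0.29 at 6 h (7.2-fold, adjusted p = 0.00142). The size of these rises depends on the background correction. Without one, S100a8 rose by 3.66 at 24 h and by 2.06 at 6 h, both still called. It was higher at 24 h than at 6 h of LPS by 1.72 ± 0.29 (adjusted p = 0.0133), and that call was lost without the Ntg LPS 24 h array (1.21, adjusted p = 0.08) and without the Ntg LPS 6 h array (1.60, adjusted p = 0.0724).

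S100a9, the partner subunit, lies next to S100a8 on chromosome 3. Its 1 probe read 91.3 to 103.5 on the 6 arrays, near the array medians, with detection p-values of 0.27 to 0.954. It was not detected on any array, so it had no test. Fitted without the filter on detection, S100a9 gave -0.02 ± 0.10 for LPS 24 h minus PBS and 0.08 ± 0.10 for LPS 6 h minus PBS. A single probe at background does not show whether the transcript was absent. The windows from 250 bases before to 50 bases after the transcript start (RefSeq, GRCm38.p6) are shown for Lcn2 and S100a8, each the gene nearest to the other in profile over the arrays, and for the undetected neighbour S100a9. They are Lcn2 at chr2:32387690-32387989 on the minus strand, S100a8 at chr3:90668821-90669120 on the plus strand and S100a9 at chr3:90695672-90695971 on the minus strand, each written 5′ to 3′ along its gene. Capitals mark matches on either strand to TTNNGNAA, a loose form of the motif bound by C/EBP factors.
Lcn2 promoter: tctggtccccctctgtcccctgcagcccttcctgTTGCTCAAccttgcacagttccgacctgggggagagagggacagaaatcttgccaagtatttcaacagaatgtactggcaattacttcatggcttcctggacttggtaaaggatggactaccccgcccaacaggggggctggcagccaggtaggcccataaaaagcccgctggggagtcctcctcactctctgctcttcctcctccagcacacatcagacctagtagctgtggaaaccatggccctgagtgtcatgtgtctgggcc
S100a8 promoter: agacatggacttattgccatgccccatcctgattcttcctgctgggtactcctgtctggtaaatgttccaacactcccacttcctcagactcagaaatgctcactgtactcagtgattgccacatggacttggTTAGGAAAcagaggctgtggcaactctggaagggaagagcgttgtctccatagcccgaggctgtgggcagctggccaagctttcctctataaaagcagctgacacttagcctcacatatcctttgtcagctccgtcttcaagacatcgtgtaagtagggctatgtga
S100a9 promoter: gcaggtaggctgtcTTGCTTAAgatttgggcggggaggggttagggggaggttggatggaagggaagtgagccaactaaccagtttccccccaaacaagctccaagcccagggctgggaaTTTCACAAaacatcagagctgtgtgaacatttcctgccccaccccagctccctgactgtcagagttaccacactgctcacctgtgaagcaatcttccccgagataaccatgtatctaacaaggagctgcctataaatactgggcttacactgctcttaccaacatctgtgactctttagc

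Windows were given for 7 of the 8 genes. The C/EBP motif had 1 match in the Lcn2 window, 1 in S100a8, 2 in S100a9, 4 in Saa3, 3 in Marco, of which 2 overlap, 1 in each of the 2 Cp windows and 0 in Camp. It occurs in 40.7% of the 32851 windows of this length, so 1 match is common. A STAT motif, TTCNNNGAA, is in 8.3% of windows and in none of the members' windows. The kappa B consensus, searched by name on both strands, is in 8.46% of windows and matched once, in the Camp window. S100a8 and S100a9, one rising on the arrays and one undetected, thus both hold the C/EBP motif. These matches describe the letters of the windows and show no binding.

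Camp encodes cathelicidin, a peptide that disrupts bacterial membranes. Its probe was dim, with 156.2 in LRRK2KO and 151.3 in Ntg cells after 24 h of LPS, 184.2 in LRRK2KO and 144.9 in Ntg cells after 6 h of LPS, and 106.5 in LRRK2KO and 114.4 in Ntg cells after PBS. It was detected on all 4 LPS arrays and on 1 of the 2 PBS arrays, LRRK2KO, at a detection p of 0.00962. Every LPS array lay above both PBS arrays, and the LPS arms overlapped each other. Camp rose by 1.34 ± 0.18 at 24 h (2.54-fold, adjusted p = 0.008) and by 1.88 ± 0.18 at 6 h (3.67-fold, adjusted p = 0.00129), and the arms of LPS differed by -0.53 ± 0.18 (24 h minus 6 h, adjusted p = 0.0867). At this brightness the size depends on the background correction: without one, the differences were 0.47 at 24 h and 0.75 at 6 h, both still called. The 24 h call was lost without the Ntg LPS 24 h array (adjusted p = 0.0828), the LRRK2KO PBS array (0.051) or the Ntg PBS array (0.0578).

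Because Lcn2, S100a8 and Camp are also products of neutrophils, markers of those cells were read beside them. Of 13 neutrophil and granulocyte precursor markers on the array, 1 was detected, Csf3r, the receptor for granulocyte colony-stimulating factor. The granule protein genes Elane, Mpo, Prtn3, Ctsg, Ngp and Ltf were detected on none of the 6 arrays. The summed normalized intensity of the 13 markers was 745.3 to 881.4 after 24 h of LPS, 573.7 to 638.6 after 6 h and 399.8 to 441.1 after PBS. With the other markers undetected, the order of these sums reflects Csf3r and is no rise of the set. Csf3r itself rose by 1.73 ± 0.21 at 24 h and by 1.02 ± 0.21 at 6 h of LPS (adjusted p = 0.00531 and 0.0119). Of 5 monocyte markers, 1 to 2 were detected per array, and Ccr2, Chil3 and Plac8 on none. Microglia and macrophage markers summed to 38310 to 39690 after 24 h of LPS, 33650 to 42790 after 6 h and 65040 to 70050 after PBS. The part of these shifts in the differences of the members was not tested.

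Saa3 encodes serum amyloid A3, an acute-phase apolipoprotein made outside the liver in mice. Its probe read 23422.9 in LRRK2KO and 22230.9 in Ntg cells after 24 h of LPS, 20485 in LRRK2KO and 19879.1 in Ntg cells after 6 h of LPS, and 16325.7 in LRRK2KO and 18542.9 in Ntg cells after PBS. The arms did not overlap, but all 6 values lay within a narrow range near the top of the scale, where the brightest probe of an array reached 26480.7 to 33307.8. Saa3 differed by 0.35 ± 0.14 between LPS 24 h and PBS (1.28-fold, adjusted p = 0.154), by 0.23 ± 0.14 between LPS 6 h and PBS (adjusted p = 0.225) and by 0.12 ± 0.14 between the LPS arms (adjusted p = 0.556). The 24 h difference passed the threshold at nearly the same size without background correction (0.35, adjusted p = 0.0461) and with a variance trend (adjusted p = 0.0369). How far signals so close to the brightest probes are compressed was not tested. The Saa3 window, which held the most C/EBP matches of the members, lies at chr7:46715627-46715926 on the minus strand of GRCm38.p6, and capitals mark the 4 matches.
Saa3 promoter: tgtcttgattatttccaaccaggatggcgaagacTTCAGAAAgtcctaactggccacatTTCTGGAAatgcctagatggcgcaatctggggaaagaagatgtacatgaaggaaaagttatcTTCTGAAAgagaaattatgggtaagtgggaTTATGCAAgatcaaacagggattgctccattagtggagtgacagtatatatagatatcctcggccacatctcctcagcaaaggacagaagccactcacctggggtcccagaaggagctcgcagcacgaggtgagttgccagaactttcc

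Hp encodes haptoglobin, which captures free haemoglobin. Its brightest probe read 1298.8 in LRRK2KO and 424.9 in Ntg cells after 24 h of LPS, 341.2 in LRRK2KO and 233.5 in Ntg cells after 6 h of LPS, and 1089.5 in LRRK2KO and 590.9 in Ntg cells after PBS. The 6 h arrays were the lowest, while the 24 h LPS and PBS arms overlapped and the LRRK2KO array was the brighter one in each arm. Hp fell by 1.48 ± 0.28 at 6 h of LPS against PBS (2.79-fold lower, adjusted p = 0.00973), and without the LRRK2KO PBS array by 1.29 (adjusted p = 0.0619). It was higher at 24 h than at 6 h of LPS by 1.39 ± 0.28 (2.62-fold, adjusted p = 0.0215), a call lost without the LRRK2KO LPS 24 h array (1.07, adjusted p = 0.131), without the Ntg LPS 24 h array (1.71, adjusted p = 0.0753) and without the filter on detection (adjusted p = 0.0541). Between 24 h of LPS and PBS it differed by -0.09 ± 0.28 (adjusted p = 0.867). All 3 Hp probes gave the same picture: at 6 h against PBS they differed by -1.48, -1.28 and -1.44, each called over the 15553 probes tested, of which 38.3% were called.

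Cp encodes ceruloplasmin, a copper protein that oxidises iron for export. Its brightest probe read 3336 in LRRK2KO and 3164.5 in Ntg cells after 24 h of LPS, 660.6 in LRRK2KO and 663.6 in Ntg cells after 6 h of LPS, and 722.3 in LRRK2KO and 1596.2 in Ntg cells after PBS. The 24 h arrays were the highest and the 6 h arrays the lowest, with no overlap between arms. Cp rose by 1.74 ± 0.23 at 24 h of LPS (3.33-fold, adjusted p = 0.00739), without the LRRK2KO LPS 24 h array by 1.52 (adjusted p = 0.0619). At 6 h it differed from PBS by -0.52 ± 0.23 (adjusted p = 0.121). Between the LPS arms it was higher at 24 h by 2.26 ± 0.23 (4.78-fold, adjusted p = 0.00493), which ranked 20 of 8598 genes by size of rise.

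The 4 Cp probes were less alike than those of Hp. A dimmer probe for the same transcript record read 156.5 in LRRK2KO and 247 in Ntg cells after 24 h of LPS, 120.8 in LRRK2KO and 125.2 in Ntg cells after 6 h, and 108 in LRRK2KO and 178.1 in Ntg cells after PBS. It was also called higher at 24 h of LPS than in PBS (1.20 ± 0.26, adjusted p = 0.0351, beside 12.8% of all probes called), yet at 6 h it differed by 0.11 ± 0.26 where the brightest probe gave -0.52. Another probe, designed to another transcript record, reached 130.9 and was detected on 3 arrays. The last one was detected on none, with 92.2 to 112.1. Averaging the 3 detected probes gave 0.02 in place of -0.52 for LPS 6 h minus PBS. For LPS 24 h minus LPS 6 h the average was 1.21 in place of 2.26. The dimmer probe of the same record gave 1.09 there, and the probe of the other record gave 0.29 (adjusted p = 0.222). The size and rank of the Cp rise between the LPS arms thus rest on the brightest probe.

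**Figure D2:**
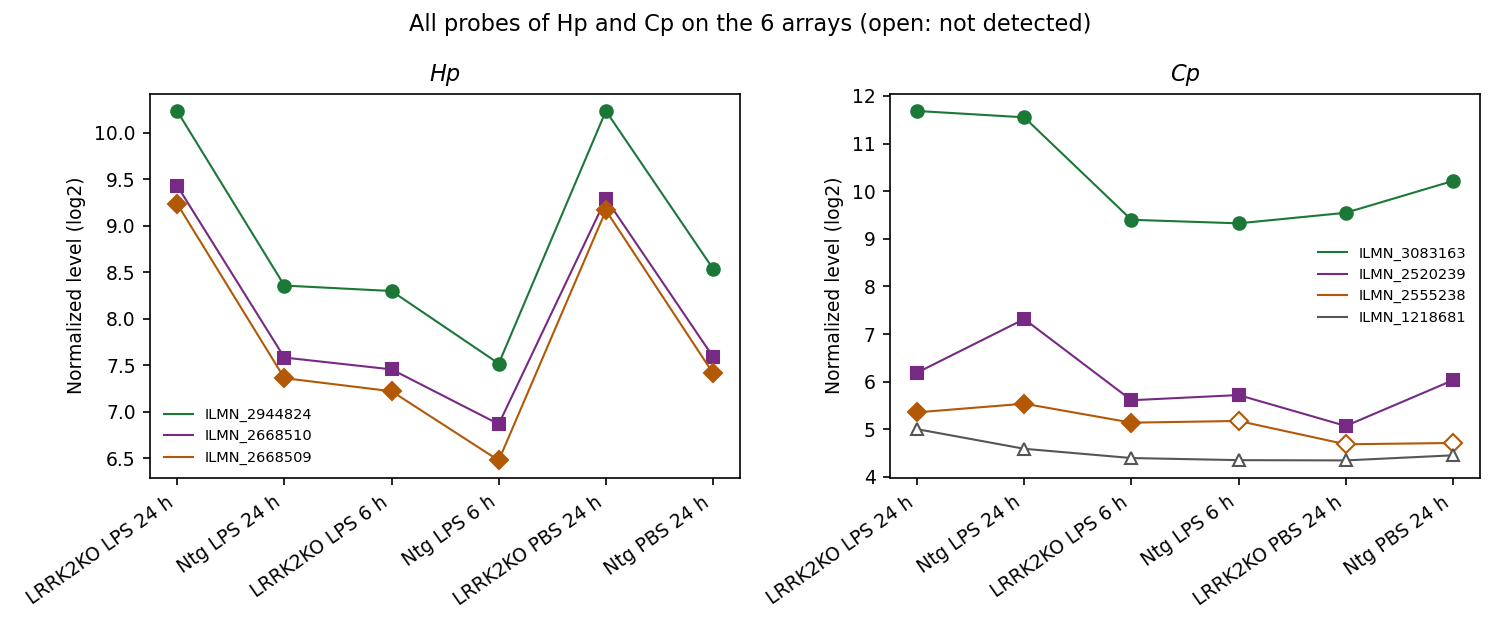
Normalized level (log2) of every Hp probe (left) and every Cp probe (right) on the 6 arrays, where a line joins the values of a probe and open symbols are undetected. The 3 Hp probes run in parallel and are lower at 6 h of LPS, while the brightest Cp probe and the dimmer one of the same transcript record differ at 24 h of LPS, where LRRK2KO minus Ntg is 0.13 for one and -1.13 for the other.

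Marco encodes a scavenger receptor of macrophages that binds and takes up bacteria. Its probe read 2557.8 in LRRK2KO and 1563.5 in Ntg cells after 24 h of LPS, 1508.4 in LRRK2KO and 1488.9 in Ntg cells after 6 h of LPS, and 1512.8 in LRRK2KO and 1283.7 in Ntg cells after PBS. One array, LRRK2KO at 24 h of LPS, stood above the other 5, which overlapped across arms. Marco differed by 0.57 ± 0.23 between LPS 24 h and PBS (1.49-fold, adjusted p = 0.154), by 0.24 ± 0.23 between LPS 6 h and PBS (adjusted p = 0.412) and by 0.33 ± 0.23 between the LPS arms (adjusted p = 0.325). The first of these passed the threshold without either LPS 6 h array (0.57, adjusted p = 0.0471).

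After 6 h of LPS, against PBS, 3 of the 7 tested members rose (Lcn2, S100a8 and Camp) and 1 fell (Hp). In this comparison 42% of all genes were called, 15.8% higher and 26.2% lower, and the members' median difference was 0.24 against -0.13 over all genes. Scaling the arrays to a common median in place of quantile normalization put the median of all genes at -0.39 here, against -0.13. Relative to that median, the differences under quantile normalization and under median scaling were 2.55 and 2.77 for Lcn2, 2.98 and 2.92 for S100a8, 2.01 and 1.98 for Camp, and -1.34 and -1.42 for Hp. Between 24 h and 6 h of LPS, 4 of 7 members were higher at 24 h (Lcn2, S100a8, Cp and Hp) and none lower, beside 23.8% of all genes called, 14.1% higher and 9.68% lower. The members' median was 1.39 in that comparison, against 0.10 over all genes. The comparisons share arrays with each other, so their counts are not independent.

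**Figure D3:**
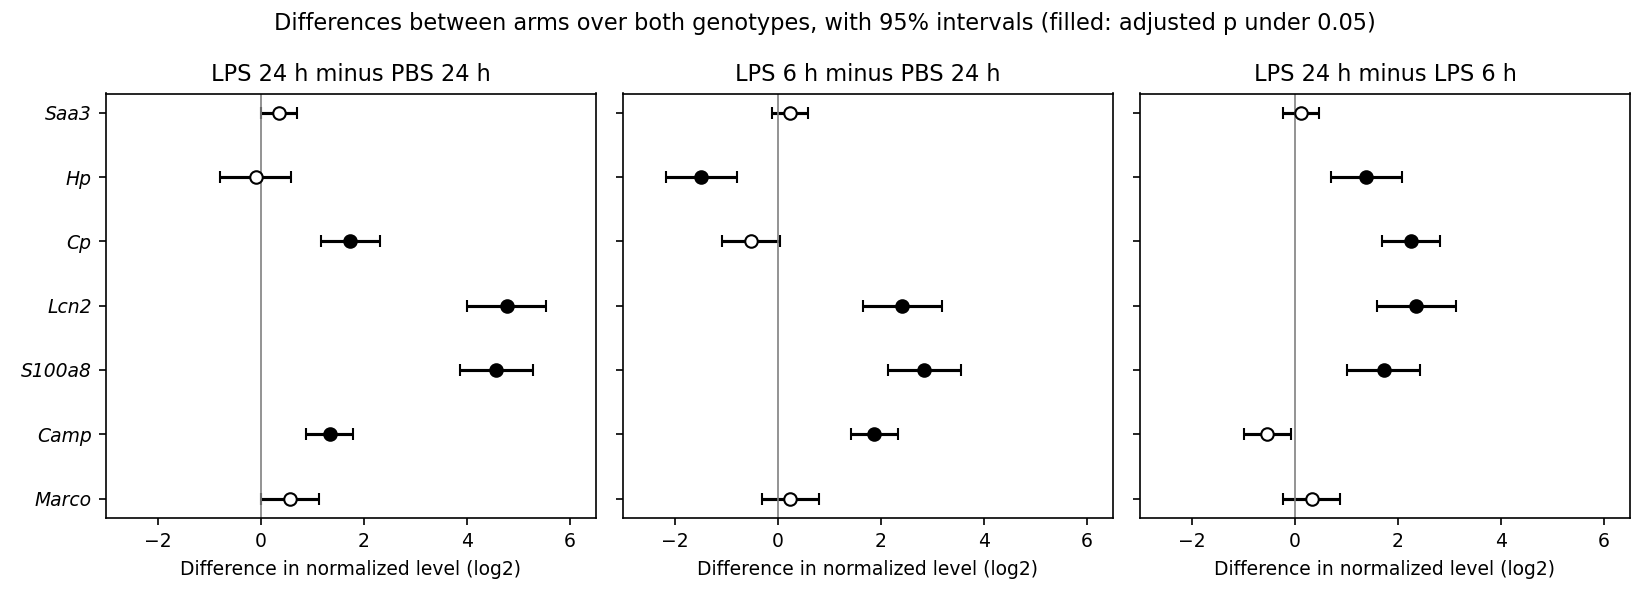
Differences between arms on the log2 scale for the 7 tested genes, from the additive model over both genotypes, with 95% intervals and filled symbols at an adjusted p under 0.05. Lcn2 and S100a8 lie at 4.78 and 4.57 for LPS 24 h minus PBS, and Hp is the 1 member below 0 that was called for LPS 6 h minus PBS.

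Over the 3 arms, LRRK2KO and Ntg microglia did not differ in any member past the threshold. Hp came nearest, higher in LRRK2KO cells by 1.45 ± 0.23 (2.74-fold, adjusted p = 0.0739), which ranked 12 of 8598 genes by size of rise. limma called 0 of 7 members at an adjusted p under 0.05 and 0.465% of all genes, 40 in number. At an unadjusted p under 0.05 it took 3 of the 7 members, Hp, Marco and Camp, and 16.1% of all genes. The members' median difference was 0.42, against 0.00 over all genes. Marco differed by 0.62 ± 0.18 (adjusted p = 0.204), Camp by 0.45 ± 0.15 (adjusted p = 0.236), Lcn2 by 0.42 ± 0.25 (adjusted p = 0.479, with its 24 h arm tied at 0 by the normalization), Saa3 by 0.14 ± 0.11 (adjusted p = 0.59), S100a8 by 0.13 ± 0.24 (adjusted p = 0.834) and Cp by -0.15 ± 0.19 (adjusted p = 0.743). Under median scaling, which moved the median of all genes to -0.13, the S100a8 value was -0.02.

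The 95% intervals of these differences were wide. That of S100a8 ran from -0.45 to 0.71, and that of Cp from -0.62 to 0.31. For Hp the interval was 0.89 to 2.02. Its call depended on the settings: the adjusted p was 0.0416 with a larger background offset (1.36), 0.023 with a variance trend, 1.68e-05 under median scaling (1.27) and 0.0238 without either LPS 6 h array (1.79). It stayed above the threshold without background correction (0.0596), with detection required on all 6 arrays (0.0503), without the filter on detection (0.174), without either LPS 24 h array (1.24, adjusted p = 0.328) and without either PBS array (1.33, adjusted p = 0.173). Relative to the median of all genes, Hp was higher by 1.45 under quantile normalization and by 1.41 under median scaling. The p-values under median scaling cannot be compared in size with the others. For Lcn2 at LPS 24 h minus PBS the limma adjusted p was 1.86e-28 there, against 0.00112, at nearly the same difference (4.76 against 4.78).

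Within the arms, where each genotype has 1 array and no test is possible, Hp was higher in LRRK2KO than in Ntg cells by 1.88 after 24 h of LPS (3.67-fold), by 0.78 after 6 h of LPS and by 1.70 after PBS. The other 2 Hp probes gave 1.85 and 1.88 after 24 h of LPS, 0.59 and 0.74 after 6 h, and 1.70 and 1.75 after PBS. Hp was the 1 member at least 1.5-fold higher in LRRK2KO cells in all 3 arms, as were 58 of 8598 genes (0.675%). After 6 h of LPS this depends on the background correction. Without one, the Hp difference there was 0.58, just short of 1.5-fold. The PBS difference depends on the scaling: the deposited Hp values of 1089.5 in LRRK2KO and 590.9 in Ntg cells are closer than the normalized ones, the Ntg PBS array had the highest median and maximum intensity of the 6, and under median scaling the difference was 1.16. After quantile normalization Saa3, Camp and Marco were also higher in LRRK2KO cells in every arm, as were 19% of all genes. In the PBS arm this too depends on the scaling: the deposited intensities of Saa3 and Camp are lower in LRRK2KO than in Ntg cells there, and under median scaling the Saa3 difference was -0.0422.

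By the count of members at least 2-fold apart, 1 of 7 (Hp) was higher in LRRK2KO cells after 24 h of LPS, beside 1.71% of all genes higher and 3.93% in either direction. After 6 h of LPS it was 0 of 7, beside 3.49%. After PBS it was 2 of 7 (Hp and Lcn2), beside 1.01% of all genes higher and 2.74% in either direction. Lcn2 was higher in LRRK2KO cells by 1.20 after PBS (2.29-fold), by 0.05 after 6 h and by 0.00 after 24 h of LPS, and under median scaling the PBS difference was 0.67. The dimmer Cp probe was lower in LRRK2KO cells after 24 h of LPS, with a difference of -1.13, where the brightest Cp probe was higher by 0.13. The direction for Cp at 24 h therefore depends on the probe.

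**Figure D4:**
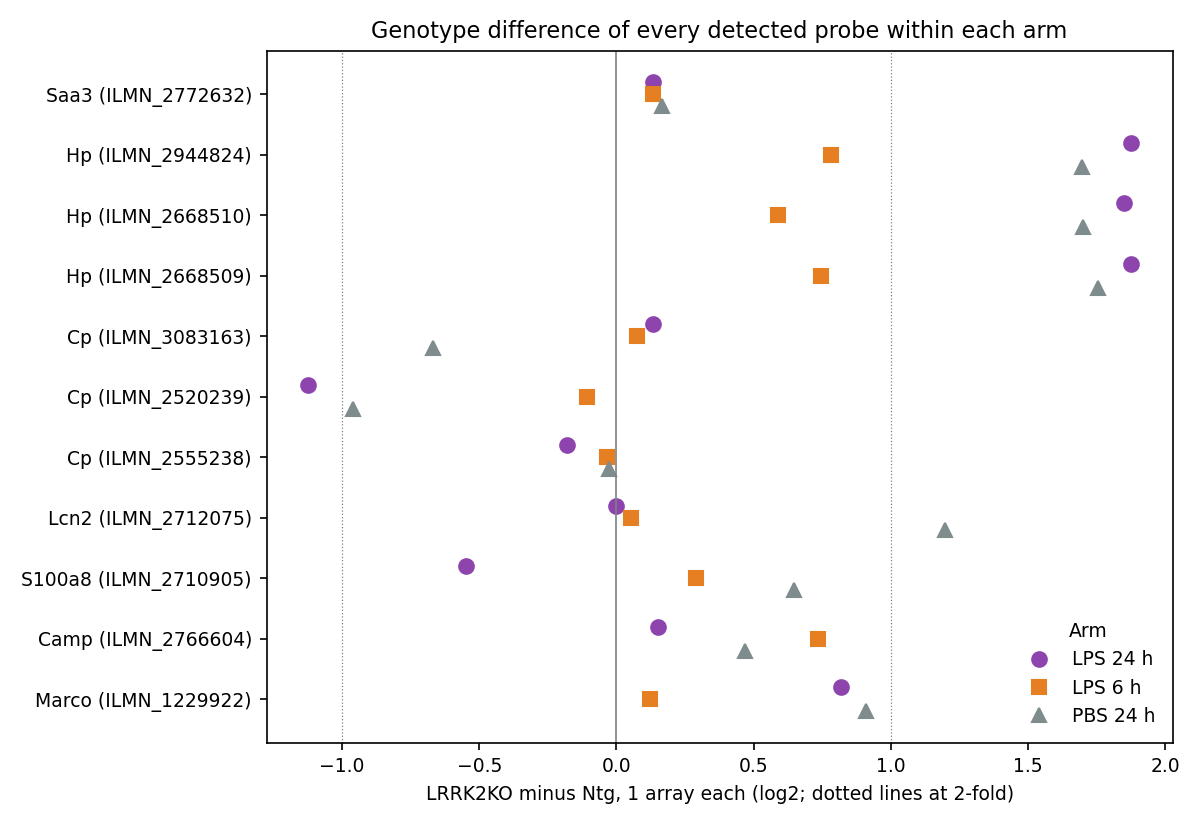
LRRK2KO minus Ntg (log2) within each arm for the 11 member probes detected on at least 2 arrays, with 1 array per genotype and dotted lines at 2-fold. The 3 Hp probes lie at 1.70 to 1.88 in the LPS 24 h and PBS arms and at 0.59 to 0.78 in the LPS 6 h arm, and the values of S100a8 fall on both sides of 0.

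The response to LPS could be set side by side in the genotypes, again without a test. S100a8 was higher after 24 h of LPS than after PBS by 3.97 in LRRK2KO and 5.17 in Ntg cells. For Lcn2 the values were 4.18 in LRRK2KO and 5.37 in Ntg cells, but with its 24 h levels tied, their gap is only the PBS difference of 1.20 with its sign turned, which was 0.67 under median scaling. For the brightest Cp probe the same difference was 2.14 in LRRK2KO and 1.34 in Ntg cells. The dimmer Cp probe lay at 5.07 after PBS and 6.19 after 24 h of LPS in LRRK2KO cells (log2). In Ntg cells it lay at 6.03 after PBS and 7.31 after 24 h of LPS. Which genotype had the larger Cp response therefore depends on the probe. In both genotypes the members at least 2-fold higher after 24 h of LPS were Lcn2, S100a8, Cp and Camp, 4 of 7, beside 4.56% of all genes higher in LRRK2KO and 4.31% in Ntg cells. For Camp this depends on the background correction. Without one, its difference over both genotypes was 0.47, short of 2-fold. Hp was lower after 6 h of LPS than after PBS in both genotypes, with differences of -1.94 in LRRK2KO and -1.02 in Ntg cells. The gaps between the genotypes for Hp and S100a8 also depend on the scaling and are smaller under median scaling. LRRK2KO minus Ntg after PBS was 1.16 there for Hp, against 1.70, and 0.25 for S100a8, against 0.65.

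Markers of cells at the borders of the brain moved with genotype. The summed normalized intensity of 7 border macrophage markers was 1355 to 2699 in LRRK2KO and 3447 to 7328 in Ntg cells, with Mrc1, Pf4 and Folr2 detected on every array and Lyve1, Cd163 and Clec10a on none. That of 6 choroid plexus markers was 312.9 to 770.8 in LRRK2KO and 2616 to 6930 in Ntg cells. Ttr, the transthyretin gene of the choroid plexus, fell by 3.25 ± 0.40 in LRRK2KO cells (adjusted p = 0.0468), and Mrc1, the mannose receptor gene, by 1.72 ± 0.15 (adjusted p = 0.0389). limma called neither gene without the filter on detection, without either PBS array or without either LPS 24 h array. Both sums are lower in LRRK2KO cells, the opposite direction to Hp, and their part in the genotype differences of the members was not tested.

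The profile over the 6 arrays, centred on each gene's mean, was compared between each member and all other tested genes by the root mean square difference (log2). Across the 6 arrays, Lcn2 and S100a8 were each other's nearest gene of all those tested, at 0.35. The next nearest to Lcn2 were the connexin 43 gene Gja1 (0.60) and Trem3 (0.62), and the next nearest to S100a8 were Gja1 (0.42) and Slc28a2b (0.49). Gja1 is itself on the list of astrocyte markers. The summed intensity of the 9 astrocyte markers was 1805 to 2447 after 24 h of LPS, 857.8 to 1189 after 6 h and 356.8 to 408.1 after PBS, the order of Lcn2 and S100a8, with 2 to 7 markers detected per array and S100b on none. Without Gja1, an alternative chosen after seeing the data, the sums were 190.7 to 277.7, 250.2 to 305.5 and 243.3 to 295.8 in the same order of arms, and the arms overlapped.

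The other members had other nearest genes. Hp was nearest to Phlda3 (0.26), Klf2 (0.33) and 1700025G04Rik (0.36). Their centred levels were also higher in LRRK2KO than in Ntg cells in every arm and lowest at 6 h of LPS. This follows from choosing them by likeness to Hp on these same arrays and is no separate result. Cp was nearest to Hectd2os (0.19), Stard7 (0.28) and Creld2 (0.31), and Camp to Stard5 (0.16), Cdc42ep2 (0.17) and Plpp1 (0.20). Marco was nearest to Lox, Vti1a and Ddit4 (0.14 to 0.15) and Saa3 to Klhdc4, Get4 and Fcer1g (0.03 to 0.05), where a flat profile makes many genes alike. Among the members themselves Hp was the farthest from Lcn2 and S100a8, at 2.19 and 2.26.

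Genes with related roles were counted in lists chosen with earlier results of these arrays known. In the same comparisons 15.5% of all genes were called at 24 h of LPS (6.54% higher, 8.99% lower) and 42% at 6 h (15.8% higher, 26.2% lower), and a list's count near these shares is no result about the list. Of 9 tested genes for other acute-phase and inflammation-induced secreted proteins, 2 rose and 1 fell at 24 h of LPS, and 4 rose and 1 fell at 6 h. At 6 h 5 of 9 called is not far from 42%, while the 4 of 9 higher stand beside 15.8% of all genes. The list's median was 0.60 at 24 h and 0.82 at 6 h, against -0.01 and -0.13 over all genes. Il1rn, the interleukin-1 receptor antagonist gene, rose by 4.28 ± 0.32 at 24 h and by 4.35 ± 0.32 at 6 h (adjusted p = 0.00138 and 0.000578). Cfb, complement factor B, rose by 2.30 ± 0.35 at 24 h and by 1.36 ± 0.35 at 6 h (adjusted p = 0.0109 and 0.0252). The protease inhibitor gene Serpina3f rose by 2.95 ± 0.19 at 6 h (adjusted p = 0.000493) and was lower at 24 h than at 6 h, with a difference of -2.76 ± 0.19 (adjusted p = 0.00247), an order of LPS arms opposite to that of Lcn2, S100a8 and Cp.

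Of 8 tested genes for other antimicrobial and granule proteins, 4 rose and 0 fell at 24 h, and 2 rose and 0 fell at 6 h. The 4 of 8 higher at 24 h stand beside 6.54% of all genes, and the 2 of 8 at 6 h are near 15.8%. The median was 0.61 at 24 h and 0.33 at 6 h. Slpi, a secreted inhibitor of leukocyte proteases, rose by 3.29 ± 0.50 at 24 h and by 1.58 ± 0.50 at 6 h (adjusted p = 0.0108 and 0.0473). Chil1, a chitinase-like protein gene, rose by 2.02 ± 0.28 at 24 h (adjusted p = 0.00789) and was higher at 24 h than at 6 h of LPS by 1.63 ± 0.28 (adjusted p = 0.0136). Acod1, which makes itaconate, rose by 2.37 ± 0.24 at 6 h and by 1.06 ± 0.24 at 24 h (adjusted p = 0.00137 and 0.0355).

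A list of other S100 genes was counted beside S100a8. It also holds S100pbp, which encodes a protein that binds an S100 protein and is not itself an S100 gene. Of 8 tested, 0 rose and 2 fell at 24 h of LPS, S100a6 by 1.51 ± 0.28 (adjusted p = 0.0206) and S100a1 by 0.95 ± 0.16 (adjusted p = 0.0158). At 6 h 1 rose, S100pbp, and 2 fell. With 6.54% of all genes higher at 24 h, 0 of 8 is near the share of all genes, as is 3 of 8 called at 6 h. Their median was -0.18 at 24 h and -0.13 at 6 h. Among 9 tested scavenger receptors besides Marco, 1 rose and 4 fell at 24 h, and 1 rose and 1 fell at 6 h, with medians of -0.63 and -0.02. The 4 of 9 lower at 24 h stand beside 8.99% of all genes, while 2 of 9 called at 6 h lies below 42%. Clec7a, the beta-glucan receptor gene, fell by 2.76 ± 0.50 at 24 h (adjusted p = 0.0192), Mrc1 by 2.31 ± 0.18 (adjusted p = 0.00176) and Colec12 by 1.77 ± 0.14 (adjusted p = 0.00177).

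Receptors and partners of the member proteins included the toll-like receptor complex that senses S100a8 with S100a9, the metalloproteinase that binds lipocalin 2, and the iron exporter that works with ceruloplasmin. Of 11 tested, 2 rose and 4 fell at 24 h, and 4 rose and 1 fell at 6 h, with medians of -0.53 and -0.15. The 5 of 11 called at 6 h are near 42%, and the 6 of 11 at 24 h stand beside 15.5%. By direction, the 4 of 11 higher at 6 h stand beside 15.8% of all genes, and the 4 of 11 lower at 24 h beside 8.99%. Mmp9, the metalloproteinase, rose by 1.32 ± 0.30 at 24 h (adjusted p = 0.0378) and was higher at 24 h than at 6 h of LPS by 2.07 ± 0.30 (adjusted p = 0.00974). Slc40a1, the exporter ferroportin, fell by 2.27 ± 0.24 at 24 h (adjusted p = 0.00365), the time at which Cp rose. Tlr2 fell by 0.88 ± 0.16 at 24 h (adjusted p = 0.0183) and rose by 0.55 ± 0.16 at 6 h (adjusted p = 0.0369).

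Among 21 tested genes of iron and haem handling, 1 rose and 5 fell at 24 h, and 5 rose and 7 fell at 6 h, with medians of -0.42 and -0.41. The 6 of 21 called at 24 h stand beside 15.5% of all genes, and the 12 of 21 at 6 h beside 42%. Slc39a14, an importer of iron and zinc, rose by 1.38 ± 0.17 at 24 h and by 1.79 ± 0.17 at 6 h (adjusted p = 0.0063 and 0.00126). Hfe, a regulator of hepcidin, fell by 1.64 ± 0.21 at 24 h and by 1.79 ± 0.21 at 6 h (adjusted p = 0.0063 and 0.0021). Steap3, a ferrireductase, fell by 1.34 ± 0.23 at 24 h and by 1.72 ± 0.23 at 6 h (adjusted p = 0.0166 and 0.00339). The mitochondrial iron importer gene Slc25a37 rose by 1.90 ± 0.14 at 6 h (adjusted p = 0.000637).

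The inducers and regulators of acute-phase genes were mostly higher at 6 h. Of 19 tested, 13 rose and 2 fell at 6 h of LPS, 7 rose and 2 fell at 24 h, and 7 were lower and 1 higher at 24 h than at 6 h. The shares of all genes were 15.8% higher at 6 h, 6.54% higher at 24 h and 9.68% lower between the LPS arms. The list's median was 0.90 at 6 h and 0.51 at 24 h, against -0.13 and -0.01 over all genes. Il6 rose by 4.74 ± 0.14 at 6 h and by 2.20 ± 0.14 at 24 h (adjusted p = 0.000161 and 0.00112). Socs3, an inhibitor of cytokine signalling induced through STAT3, rose by 4.13 ± 0.17 at 6 h and by 3.93 ± 0.17 at 24 h (adjusted p = 0.000235 and 0.000565). The cytokine genes Osm and Lif were lower at 24 h than at 6 h, with differences of -2.31 and -2.13 (adjusted p = 0.00459 and 0.00247), whereas Lcn2, S100a8 and Cp were higher. Across these 7 lists limma called 1 gene between the genotypes, Mrc1, with the limits given above.

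**Figure D5:**
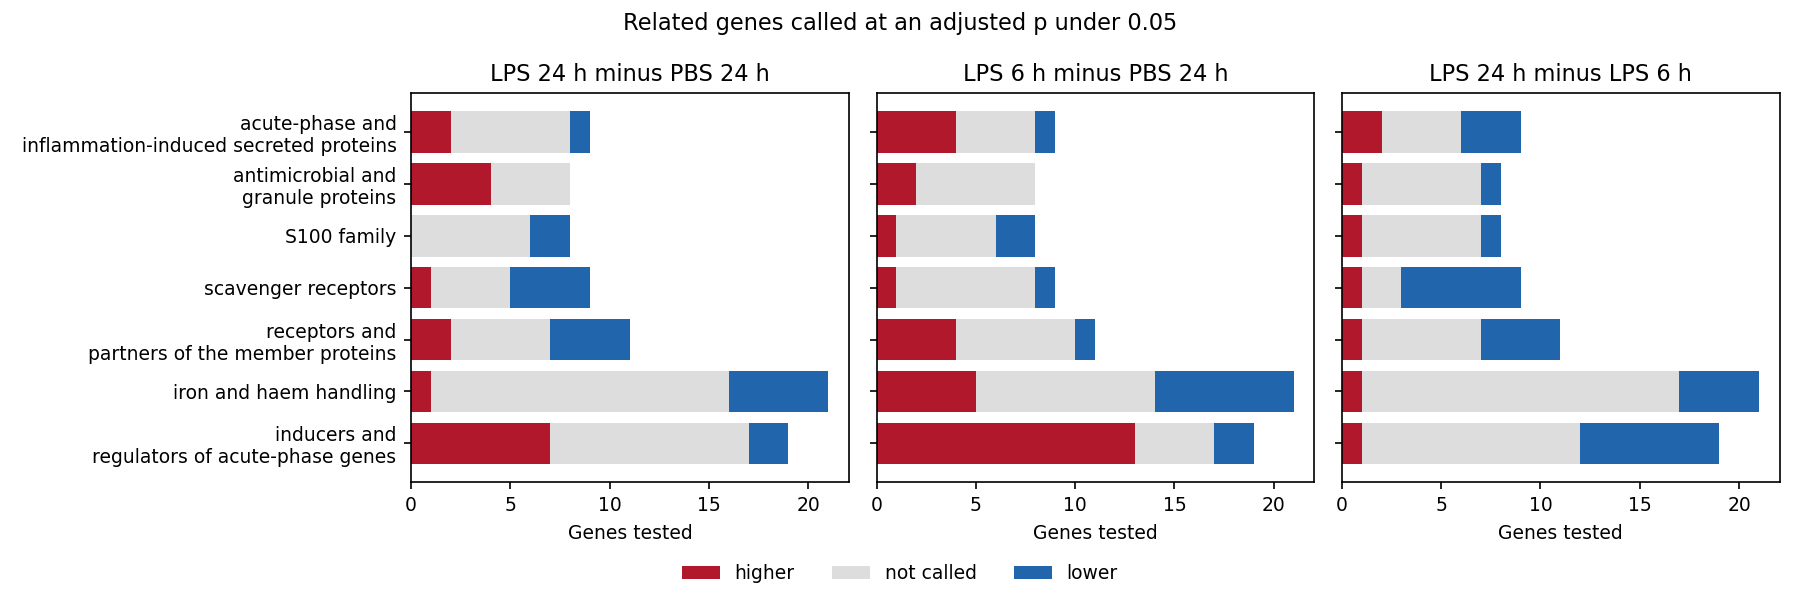
Number of tested genes of each related list that were called higher (red), called lower (blue) or not called (grey) at an adjusted p under 0.05, for the 3 comparisons between arms. The inducers and regulators have 13 of 19 called higher at 6 h of LPS and 7 of 19 called lower at 24 h against 6 h. The S100 list, which includes S100pbp, has 0 of 8 called higher at 24 h, beside 6.54% of all genes.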

How the data were processed

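RNA from microglia was hybridised to Illumina beadchips, 1 array for each of the 6 groups named in the sample titles. The main deposited table holds, per the file headers, a linear intensity and a detection p-value for each probe. The tool, per the submitters' processing notes, was BeadStudio, with its version not given in the sources used here. A second deposited table by the authors holds intensity values quantile normalized without background subtraction, as read from the values, and served as an alternative.

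Background was corrected by neqc of limma 3.58.1 (R 4.3.3) from the detection p-values (offset 16). Arrays were then quantile normalized and put on the log2 scale. The platform annotation gave probe names (34885 with 1 gene symbol, 18 with several, 10378 with none here), and RefSeq (GRCm38.p6) gave gene neighbours and promoter windows. The brightest probe detected on at least 2 arrays stood for a gene, which left 8598 genes. The fit left 2 residual degrees of freedom, with 3.88 prior ones, tests were two-sided, and p-values were adjusted over all genes or over all 15553 probes. Differences between single arrays have no test, and precision is limited by having 6 arrays.

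The members, lists and tests were chosen with earlier results of these data known. Genes named were the members, up to 4 called genes of each list with the largest change in a comparison, the 3 genes nearest in profile to each member, and Lrrk2. Lists were the 7 related ones and markers of microglia, neutrophils, monocytes, border macrophages, astrocytes, oligodendrocytes, fibroblasts, endothelium, choroid plexus and neurons. Alternatives changed the background correction, offset, scaling, starting table, detection filter, probe rule, variance model or left out 1 array.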

Additional observations from a re-analysis of the deposited data

Results flagged for a closer look

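In 4 cases the members moved in opposite directions in groups under the same contrast, on single arrays, and none of these differences was tested. Marco was lower after 6 h of LPS than after PBS in LRRK2KO cells (-0.15 on the log2 scale) and higher in Ntg cells (0.64). The deposited Marco intensities in LRRK2KO cells were nearly alike, with 1508.4 after 6 h of LPS and 1512.8 after PBS. Between 24 h and 6 h of LPS, Marco was higher at 24 h in LRRK2KO cells (0.67) and differed by -0.02 in Ntg cells. Cp was lower in LRRK2KO than in Ntg cells after PBS (-0.67) and differed by 0.13 after 24 h of LPS, where its dimmer probe went the other way. S100a8 was lower in LRRK2KO than in Ntg cells after 24 h of LPS (-0.55) and higher after PBS (0.65). The PBS value was 0.33 without background correction and 0.25 under median scaling, and the deposited PBS intensities run the other way, with 176.7 in LRRK2KO and 183.7 in Ntg cells. Each value rests on 1 array per genotype and arm.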

How the results depend on the processing

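Of 220 member values recomputed under other processing settings, 210 kept their direction and side of the threshold, and of 168 values with 1 array left out, 144 did. Some of these values could not have changed direction. A variance trend leaves a difference as it was, and so does leaving out an array of an arm outside the comparison. Either array of such an arm gave the same result, and so did either array of any arm for the genotype difference. The 168 values are therefore not all separate checks. The detection filters also left the members' differences unchanged, and the authors' table nearly repeats the setting without background correction. Lcn2, S100a8, Cp and Camp stayed called at 24 h of LPS under every processing setting that gave a value (Camp has none with detection on all 6 arrays). Changed calls by setting, the cause of which was not tested, were these: Saa3 at LPS 24 h minus PBS passed with no background correction and with the authors' table (0.35, adjusted p = 0.0461) and with a variance trend (0.35, adjusted p = 0.0369); Cp at LPS 6 h minus PBS was called under median scaling (-0.73) and gave 0.018 as a mean of probes; Hp at LPS 24 h minus LPS 6 h was lost without the filter (1.39, with 19057 genes tested); and Hp between genotypes passed with offset 50 (1.36), median scaling (1.27) and a variance trend (1.45). S100a8 between genotypes reversed to -0.0204 under median scaling.

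With 1 array left out, LPS 24 h minus PBS ran from -0.41 to 0.23 for Hp, 1.35 to 2.12 for Cp, 1.12 to 1.57 for Camp and 0.35 to 0.79 for Marco. LPS 6 h minus PBS ran from -1.98 to -0.98 for Hp, -0.91 to -0.13 for Cp and -0.13 to 0.61 for Marco. LPS 24 h minus LPS 6 h ran from 0.88 to 1.89 for Hp, 2.05 to 2.67 for Lcn2, 1.21 to 2.23 for S100a8 and -0.0444 to 0.70 for Marco. LRRK2KO minus Ntg ran from 1.24 to 1.79 for Hp, -0.30 to 0.10 for Cp and -0.13 to 0.47 for S100a8. Reversed single values were 0.23 and 0.09 for Hp at 24 h, -0.13 for Marco at 6 h, -0.0444 for Marco between the LPS arms, 0.10 for Cp and -0.13 for S100a8 between genotypes.

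The number of genes called ran from 319 to 1633 (LPS 24 h minus PBS), 1815 to 3325 (LPS 6 h minus PBS), 161 to 1976 (LPS 24 h minus LPS 6 h) and 0 to 122 (LRRK2KO minus Ntg) with 1 array left out, which also removes degrees of freedom. Between genotypes limma called 40 genes, against 101 with no background correction, 112 with offset 50, 444 under median scaling, 100 with the authors' table, 67 as a mean of probes, 183 with a variance trend and 0 without the filter, where 2143 genes had an unadjusted p under 0.05. Without either PBS array it also called 0, with 1243 genes at an unadjusted p under 0.05. Under median scaling the genes called higher and lower were 779 and 3090 at 6 h, against 1357 and 2256 in the main scaling, 1951 and 567 between the LPS arms, against 1216 and 832, and 99 and 345 between genotypes, against 14 and 26. All counts under median scaling rest on p-values that cannot be compared in size with those of the main scaling. The astrocyte marker sum without Gja1, chosen after seeing the data, changed by -0.22 (LPS 24 h minus PBS), 0.04 (LPS 6 h minus PBS) and -0.26 (LPS 24 h minus LPS 6 h) on the log2 scale. No paired analysis was possible because all arrays carry the same replicate number, so nothing beyond the genotype and arm terms, which already compare arms within genotype, could serve as a block.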

Other observations

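Other marker lists gave the following values. Of 7 oligodendrocyte lineage markers, 2 to 5 were detected per array, and the summed normalized intensity was 510.3 to 652.1 after 24 h of LPS, 271.3 to 342 after 6 h and 675.7 to 750.2 after PBS. Mbp, the myelin basic protein gene, fell by 2.90 ± 0.26 at 6 h of LPS (adjusted p = 0.00107) and by 1.14 ± 0.26 at 24 h (adjusted p = 0.0391), so that, like Hp, it was lowest at 6 h. Fibroblast and pericyte markers had 1 to 3 of 7 detected per array, with a sum of 157.6 to 277.3 in LRRK2KO and 195.3 to 494.6 in Ntg cells. The monocyte marker sum was 141.6 to 168.2 in LRRK2KO and 178.9 to 404.4 in Ntg cells. Endothelial and neuron markers were detected on no array, 0 of 5 each.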
